A study of Mus musculus with 10 samples.

Results

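Amino acid transporters of the plasma membrane were followed here in depolarized and resting cortical cultures, by the 10 genes Slc7a1, Slc7a2, Slc7a5, Slc7a6, Slc3a2, Slc1a4, Slc1a5, Slc38a1, Slc38a3 and Slc6a9. All transcripts annotated to these genes were taken, which gave 20 of the 22534 transcripts in the counts. Of these, 15 transcripts of 7 genes were measured, meaning that 2 or more cultures each had 10 or more RPKM both in RNAseq, over the reads of all regions and the length of the whole transcript, and in RF on the CDS (coding sequence). This RNAseq RPKM is not the one on the CDS by which levels are compared between genes further on. Slc7a6, Slc1a5 and Slc6a9 did not reach this minimum, and their tests come from a fit without it.

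RNAseq measured transcript abundance, and ribosome footprinting (RF) measured the mRNA fragments that ribosomes protect from nuclease. Translation efficiency (TE) is the ratio of RF reads on the CDS to RNAseq reads. All cultures were cortical cells of FVB mice taken at P0 and grown for 7 days, and all received cycloheximide (100 ug/ml for 7 min), which stalls ribosomes, before lysis. Cultures 1, 2 and 3 were left untreated, whereas cultures 4 and 5 were depolarized with 55 mM KCl for 3 h.

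The labels call the cells neurons, and the study's methods describe a mixture of neurons and glia. Every marker of both that the counts list had RNAseq reads, and 6 neuronal and 14 astrocyte markers were measured. RNAseq libraries held 3056286 to 3629959 counted reads and RF libraries 1463654 to 7719915, with the lowest RF totals in untreated culture 3 and KCl culture 4. Values below are CPM, read counts scaled to library size, after TMM normalization within each assay. In bulk cultures, fewer cells of a type and less RNA per cell cannot be told apart. No label says that the numbered cultures came from separate litters, so p-values measure the spread between cultures.

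Amino acids cross the plasma membrane through carriers with distinct substrates. Slc7a1 and Slc7a2 carry cationic amino acids such as arginine and lysine. Slc3a2 encodes the CD98 heavy chain, a glycoprotein that pairs with light chains, among them Slc7a5, which exchanges large neutral amino acids such as leucine, and Slc7a6, which exchanges cationic for neutral amino acids. Slc1a4 and Slc1a5 exchange small neutral amino acids, Slc1a5 including glutamine. In brain, Slc38a3 is known for releasing glutamine from astrocytes and Slc38a1 for its uptake into neurons, and Slc6a9 clears glycine. Uptake of leucine and arginine feeds mTORC1, a kinase complex that promotes translation, and several of the carriers are known targets of Atf4, a transcription factor induced by amino acid shortage.

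RF reads are placed by the annotated start codon, and for some members the transcripts of a gene begin translation at different sites. The start codons of the members that changed with KCl, or that have alternative starts, are shown from the GRCm38 genome with 10 bases before and 7 after the ATG, which is in capitals.
Slc7a1 (chr5:148352433-148352435, minus strand): gctcagcacaATGggctgca
Slc7a2 (chr8:40898953-40898955, plus strand): ctcttccaccATGattccct
Slc7a2, longer protein (chr8:40898902-40898904, plus strand): gggaggggagATGgcctcaa
Slc3a2, shorter protein (chr19:8713745-8713747, minus strand): tgcaggcaccATGagccagg
Slc3a2, longer protein (chr19:8723093-8723095, minus strand): atccatctctATGgatcctg
Slc7a5 (chr8:121907604-121907606, minus strand): cgccgagagcATGgcggtcg
Slc1a4, longer protein (chr11:20332470-20332472, minus strand): gggcaacgacATGgagaaga
Slc1a4, shorter protein (chr11:20332230-20332232, minus strand): cccgggcgagATGctgctcc
Slc1a5 (chr7:16781901-16781903, plus strand): acggctcagcATGgcagtgg
A purine stood at the third base before the ATG in every member transcript except that of the longer Slc3a2 protein, which has T there. The longer Slc1a4 protein has 532 codons and the shorter has 452, and both starts lie in the same reading frame of 1 exon, so that the annotated 5′UTR of the shorter form contains coding sequence of the longer. The Slc3a2 forms have 565 and 526 codons and start in different first exons. The longer Slc7a2 protein has 674 codons, its transcript did not reach the measured minimum, and the named transcript has 658.

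KCl raised Slc7a1 and Slc3a2 and lowered Slc7a5 in both RNAseq and RF, and raised Slc1a4 in RF. In RNAseq, 3 of the 7 measured genes passed the test (edgeR's quasi-likelihood test, adjusted p under 0.05), against 33.2% of all 7262 measured transcripts, of which 17.5% rose and 15.7% fell. In RF, 4 of 7 passed, against 41.0%, of which 21.2% were higher and 19.8% lower. In TE, none of the 7 passed with edgeR, against 5.8%, while 1 had an unadjusted p under 0.05, and DESeq2 found none at either level. The median log2 fold change of the 7 was 0.03 in RNAseq, 0.09 in RF and 0.03 in TE, and that of all measured transcripts was -0.01, 0.00 and 0.03. Beside the shares of all transcripts, these counts show nothing particular to transporters.

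**Figure D1:**
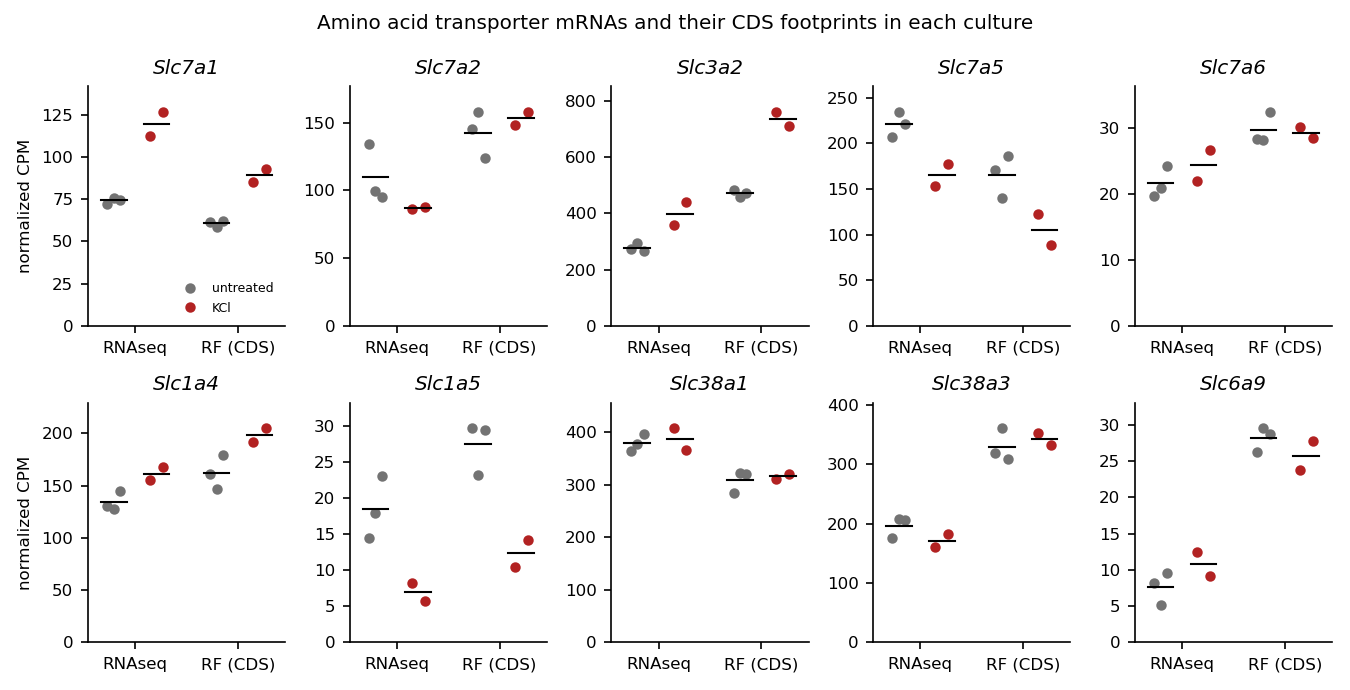
Normalized CPM of the named transcript of each of the 10 genes in each culture, for RNAseq on all regions and for RF on the CDS (linear axes from 0). Points are single cultures (grey untreated, n = 3, and red KCl, n = 2) and lines are group means. The KCl points lie above all grey points in both assays for Slc7a1, Slc3a2 and Slc1a4 and below them for Slc7a5 and Slc1a5. With n = 3 against n = 2 this separation is a description, not a test, and its share over all transcripts is not given. Slc1a4 did not pass the test in RNAseq.

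Among the cationic carriers, Slc7a1 rose with KCl and Slc7a2 did not pass the test. Slc7a1 is the widely expressed system y+ carrier (chr5:148327410-148399904, minus strand, 13 exons). Its RNAseq level was 72.3, 75.9 and 74.7 CPM in untreated cultures 1, 2 and 3, and 112.5 and 126.7 CPM in KCl cultures 4 and 5. Its CDS footprints were 61.6, 58.2 and 61.9 CPM without and 85.4 and 93.0 CPM with KCl. Both KCl cultures lay well above the narrow untreated range in each assay. RNAseq rose 1.61-fold (log2 0.69 ± 0.15 SE, adjusted p = 0.000294) and RF 1.49-fold (log2 0.57 ± 0.13, adjusted p = 0.000987). Per culture, TE was 0.852, 0.768 and 0.828 without KCl and 0.759 and 0.734 with it, and its difference was log2 -0.13 (95% interval -0.57 to 0.31). The RNAseq rise passed the test in every alternative, and the RF rise in all except without KCl culture 5 (adjusted p = 0.0643). Of its 1523 RNAseq reads over all libraries, 1228 lay in its 3′UTR of 5030 nt, and on the CDS alone RNAseq rose by log2 0.89 (adjusted p = 0.00678).

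Slc7a2, an arginine carrier of the same family (chr8:40874948-40922070, plus strand, 12 exons), had 134.4, 99.8 and 94.8 CPM in RNAseq without KCl and 86.1 and 87.8 CPM with it. Ribosome occupancy on the CDS was 145.1, 157.9 and 123.8 CPM without KCl and 148.3 and 158.0 CPM with it. The RNAseq groups did not overlap, though untreated culture 1 stood apart at the top, and the RF groups overlapped. The RNAseq difference was log2 -0.34 ± 0.16 (adjusted p = 0.0997), the RF difference 0.09 ± 0.11 (adjusted p = 0.573) and the TE difference 0.44 ± 0.21 (unadjusted p = 0.0354, adjusted p = 0.246).

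A second Slc7a2 transcript with the same CDS reads gave other RNAseq and TE results. ENSMUST00000098816, described after its values were seen, has a 3′UTR of 1522 nt in place of 5536 nt. This shorter 3′UTR lies wholly inside the longer one, so its CDS and 3′UTR reads are also reads of the transcript above and do not measure this isoform alone. Its 3′UTR had 116, 66 and 55 RNAseq reads without KCl and 37 and 60 with it. In CPM over all regions it had 55.1, 38.2 and 32.6 without KCl and 27.7 and 27.3 with it. The RNAseq count on this transcript fell by 0.61 ± 0.21 on the log2 scale (adjusted p = 0.023) and the TE computed from it rose by 0.71 ± 0.24 (adjusted p = 0.0476). Neither call was stable. TE missed the threshold in 10 of 11 alternatives, and without untreated culture 1 the adjusted p was 0.181 for RNAseq and 0.232 for TE. With RNAseq reads on the CDS only, which both transcripts share, the RNAseq difference was -0.43 (adjusted p = 0.302).

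Of the CD98 genes, the heavy chain Slc3a2 rose and the light chain Slc7a5 fell in RNAseq and RF, while the light chain Slc7a6 was not called. Slc3a2, the heavy chain (chr19:8707617-8713879, minus strand, 9 exons), had 274.5, 294.6 and 265.0 CPM in RNAseq without KCl and 359.5 and 439.1 CPM with it. RF on the CDS gave 483.0, 459.5 and 471.6 CPM without KCl and 761.3 and 710.6 CPM with it. All KCl values exceeded all untreated values, and the untreated RF values differed little from each other. RNAseq rose 1.44-fold (log2 0.52 ± 0.13, adjusted p = 0.00117) and RF 1.56-fold (log2 0.64 ± 0.08, adjusted p = 3.58e-07). TE overlapped between groups, with 1.76, 1.56 and 1.78 without KCl and 2.12 and 1.62 with it (log2 0.12, interval -0.20 to 0.45). The RF rise passed the test under every alternative, and RNAseq missed it only without KCl culture 5 (adjusted p = 0.107).

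Slc7a5, the leucine-exchanging light chain (chr8:121881150-121907694, minus strand, 10 exons), had 207.6, 234.8 and 221.3 CPM in RNAseq without KCl and 152.9 and 177.2 CPM with it. Its CDS footprints were 170.6, 140.3 and 186.4 CPM without KCl and 122.5 and 88.6 CPM with it. Both KCl cultures lay below all untreated cultures in each assay. RNAseq fell 1.34-fold (log2 -0.42 ± 0.14, adjusted p = 0.0138) and RF 1.58-fold (log2 -0.66 ± 0.14, adjusted p = 0.000844). In RF the 95% interval of Slc7a5 (-0.94 to -0.38) lay apart from that of Slc3a2 (0.49 to 0.80). The TE difference of Slc7a5 was -0.24 (interval -0.62 to 0.13). Its RNAseq call was lost under 5 alternatives, among them filterByExpr (adjusted p = 0.0534), reads on the CDS only (0.246), and leaving out untreated culture 2 (0.0668) or KCl culture 4 (0.238), and its RF call without KCl culture 5 (adjusted p = 0.0836).

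Slc7a6, the other light chain (chr8:106168857-106198706, plus strand, 10 exons), was below the measured minimum. It had 65, 69 and 76 RNAseq reads without KCl and 69 and 94 with it, or 19.7, 20.9 and 24.3 CPM against 21.9 and 26.7 CPM. Its footprints were 28.3, 28.1 and 32.4 CPM without KCl and 30.1 and 28.5 CPM with it, so both assays overlapped. The differences were log2 0.24 in RNAseq (interval -0.24 to 0.71) and 0.07 in RF (interval -0.32 to 0.46), which leaves a change of the size seen for Slc7a5 outside the RF interval.

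**Figure D2:**
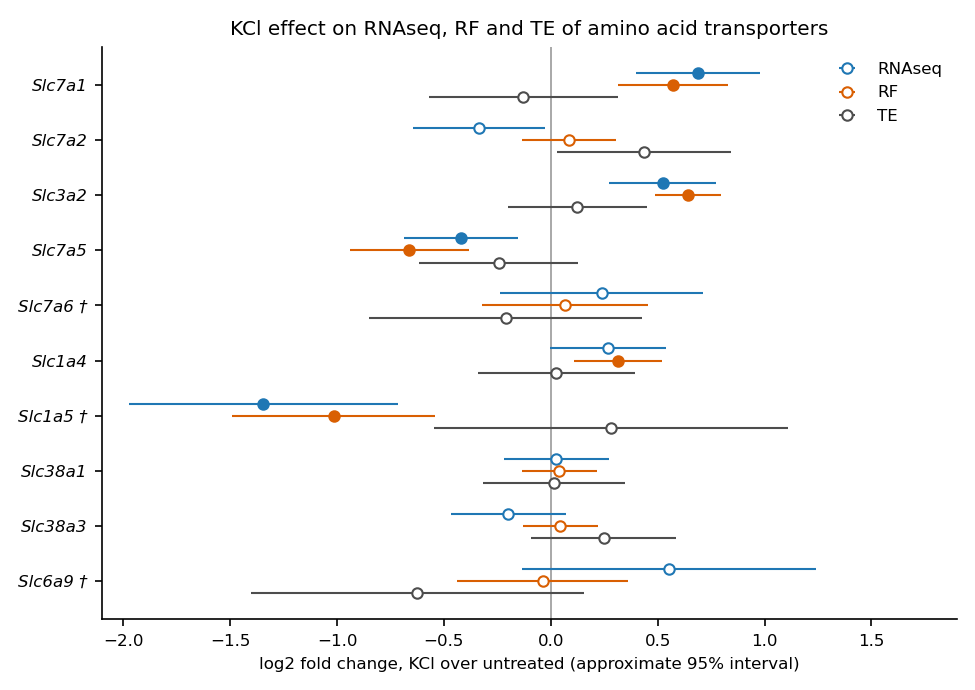
Log2 fold change of KCl over untreated cultures for the named transcript of each gene in RNAseq, RF on the CDS and TE, with approximate 95% intervals. Filled points have an adjusted p under 0.05, daggers mark the 3 genes tested without the RPKM minimum, and no TE point is filled.

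The neutral exchangers differed as well. Slc1a4, which carries alanine, serine and cysteine (chr11:20302180-20332713, minus strand, 8 exons), had 130.7, 127.4 and 145.0 CPM in RNAseq without KCl and 155.4 and 167.8 CPM with it. RF on the CDS gave 161.0, 146.7 and 179.8 CPM without KCl and 191.7 and 205.0 CPM with it. The groups did not overlap in either assay. RF rose 1.24-fold (log2 0.31 ± 0.11, adjusted p = 0.0186), and the RNAseq difference was log2 0.27 ± 0.14 (adjusted p = 0.138). The RF call was lost with DESeq2 (adjusted p = 0.0579), with library totals in place of TMM (0.108) and without either KCl culture (0.0569 without culture 4 and 0.236 without culture 5). On the transcript of the shorter protein the RF difference was not called (log2 0.25, adjusted p = 0.0593). The TE difference of the named transcript was 0.03 (interval -0.34 to 0.39). With RNAseq reads on the CDS only, the RNAseq difference was log2 0.58 (adjusted p = 0.063) and the TE difference -0.29 (adjusted p = 0.689). The ratio of CDS RF to CDS RNAseq RPKM was 9.17, 8.33 and 9.23 without KCl and 7.45 and 7.60 with it.

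Slc1a5, the exchanger that includes glutamine among its substrates (chr7:16781340-16798274, plus strand, 9 exons), showed the largest decrease among the 10 genes, from few reads. It had 48, 59 and 72 RNAseq reads without KCl and 26 and 20 with it, or 14.5, 17.9 and 23.0 CPM against 8.26 and 5.68 CPM. Its CDS footprint counts were 219, 146 and 40 without KCl and 15 and 39 with it, or 29.7, 23.2 and 29.5 CPM against 10.5 and 14.2 CPM. Every KCl value was below every untreated value. In the fit without a minimum, RNAseq fell 2.54-fold (log2 -1.35 ± 0.32, adjusted p = 0.000387) and RF 2.02-fold (log2 -1.02 ± 0.24, adjusted p = 0.00028). In that fit 8.62% of 21950 transcripts fell in RNAseq and 12.6% of 20864 in RF. The RF call was kept in all alternatives run and the RNAseq call was lost only without KCl culture 5 (log2 -1.10, adjusted p = 0.0625). The TE difference was 0.28, with a wide interval of -0.55 to 1.11.

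Slc38a1 and Slc38a3, sodium-coupled carriers of glutamine and other neutral amino acids, differed little between the groups. Slc38a1 (chr15:96575987-96641962, minus strand, 16 exons) had 365.0, 378.0 and 395.9 CPM in RNAseq without KCl and 407.5 and 365.5 CPM with it. Its CDS footprints were 283.3, 322.8 and 320.5 CPM without KCl and 311.4 and 320.7 CPM with it. The groups overlapped in both assays. Differences were log2 0.03 in RNAseq (interval -0.22 to 0.27) and 0.04 in RF (interval -0.14 to 0.22).

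Slc38a3 (chr9:107650634-107659528, minus strand, 15 exons) had 174.9, 207.8 and 206.3 CPM in RNAseq without KCl and 159.9 and 181.8 CPM with it. Ribosome occupancy on the CDS was 318.1, 360.3 and 308.8 CPM without KCl and 352.7 and 331.2 CPM with it. Both assays overlapped. RNAseq differed by log2 -0.20 (interval -0.47 to 0.07) and RF by 0.05 (interval -0.13 to 0.22). TE was 1.819, 1.734 and 1.497 without KCl and 2.206 and 1.823 with it, which is apart by a narrow margin, and the difference was log2 0.25 (adjusted p = 0.484). The 3 Slc38a1 transcripts share all CDS reads, as do the 3 of Slc38a3, so these isoforms cannot be told apart in RF on the CDS.

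Slc6a9, the glycine carrier (chr4:117835051-117869305, plus strand, 14 exons), was the gene with the fewest RNAseq reads before KCl. On the CDS it had 23, 17 and 30 RNAseq reads without KCl and 38 and 30 with it. No RNAseq read was counted on its annotated 3′UTR of 1063 nt in any library, and whether alignment or counting left these out was not tested. The whole-transcript RPKM of the measured minimum includes this 3′UTR in the length. CDS footprints of Slc6a9 were 26.3, 29.5 and 28.7 CPM without KCl and 23.8 and 27.7 CPM with it. RNAseq differed by log2 0.55 (interval -0.13 to 1.24) and RF by -0.04 (interval -0.44 to 0.36), so only for RF does the interval leave out a change of 1.5-fold in either direction.

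Levels can be compared between genes only per length, here in RPKM on the CDS, which divides reads by length. By this measure, 4 untreated transporters had far higher RNAseq levels than the rest. Slc3a2 had 140.2 ± 5.5 (SD, n = 3), Slc7a5 75.1 ± 7.8, Slc38a1 72.4 ± 5.9 and Slc38a3 71.4 ± 7.9, of which the last 3 did not differ beyond their spread. Slc1a4 followed with 11.4 ± 0.69, then Slc7a2 with 8.77 ± 1.37, Slc7a1 with 6.65 ± 0.75, Slc1a5 with 5.93 ± 0.58, Slc6a9 with 3.81 ± 1.17 and Slc7a6 with 3.71 ± 0.87. From Slc7a2 down, each gene overlapped the next except Slc1a5 and Slc6a9, whose untreated values did not. The median of all measured transcripts was 17.8, so 4 members lay above it. For some genes few RNAseq reads lay on the CDS, with 353 of 2386 for Slc1a4, 251 of 1650 for Slc7a2 and 269 of 1523 for Slc7a1. Over all regions the untreated means were 196.3 CPM for Slc38a3 (3151 nt) and 134.4 CPM for Slc1a4 (3926 nt). The gap between these genes was thus much smaller over the whole transcript.

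In RF the order changed. Slc3a2 again led with 298.7 ± 7.4 RPKM, followed by Slc38a3 with 217.2 ± 18.1 and Slc38a1 with 212.3 ± 15.3, which overlapped. Slc7a5 with 107.9 ± 15.3 and Slc1a4 with 101.8 ± 10.4 overlapped each other. Slc7a2 had 72.1 ± 8.7 and Slc7a1 32.5 ± 1.1, against a median of 39.6 over all measured transcripts. The ratio of CDS RF to CDS RNAseq RPKM was 8.91 ± 0.50 for Slc1a4 and 8.27 ± 0.78 for Slc7a2, higher than in 93.6% and 92.6% of measured transcripts. It was 1.46 ± 0.31 for Slc7a5, higher than in 27.0%. Thus Slc7a5 had over 6 times the CDS RNAseq level of Slc1a4 and about the same footprint level. The size of this gap depends on counting CDS reads alone. Of 2386 RNAseq reads of Slc1a4, 1998 lay in its 3′UTR and 353 on its CDS, while Slc7a5 had 1746 of 3258 on its CDS. Over all regions the untreated means were 221.2 CPM for Slc7a5 (3517 nt) and 134.4 CPM for Slc1a4 (3926 nt), a much smaller gap.

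**Figure D3:**
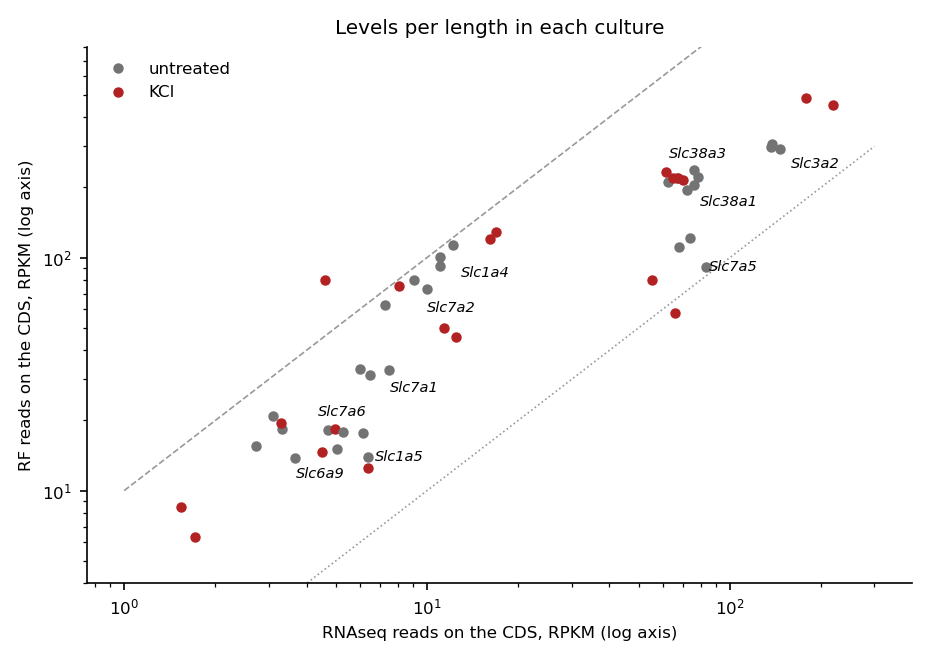
RPKM of RF against RNAseq, both on the CDS, for the named transcripts in each culture (grey untreated, red KCl, logarithmic axes), with the dotted line at a ratio of 1 and the dashed line at 10. Slc3a2, Slc38a1, Slc38a3 and Slc7a5 lie to the right below a ratio of 4, Slc1a4 lies just below the dashed line, and Slc7a2 lies on both sides of it.

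Footprints on the 5′UTR mark ribosomes before the annotated start. Of the 7 measured members, 5 had at least 20 such footprints on the named transcript over the RF libraries. None of the 5 passed the test with edgeR for 5′UTR footprints or for their ratio to the CDS, against 4.17% and 0.0851% of 4701 transcripts, and none had an unadjusted p under 0.05 with edgeR or DESeq2. On Slc3a2, whose groups did not overlap, there were 22.8, 15.2 and 25.1 CPM without KCl and 33.6 and 33.2 CPM with it (log2 0.70 ± 0.34, adjusted p = 0.293). Its 5′UTR footprints were 4.71%, 3.32% and 5.31% of its CDS footprints without KCl and 4.41% and 4.67% with it. The named Slc7a2 transcript had only 1 footprint on its 5′UTR and was not tested. The second Slc7a2 transcript, ENSMUST00000098816, had 173, or 7.99, 11.4 and 11.1 CPM without KCl and 6.30 and 6.57 CPM with it. These groups did not overlap, and neither the difference (log2 -0.63 ± 0.44, adjusted p = 0.513) nor the ratio to the CDS (log2 -0.71, adjusted p = 0.621) was called. Slc7a6, below the measured minimum and not tested here, had 12, 7 and 1 footprints on its 5′UTR without KCl and 5 and 7 with it, or 1.63, 1.11 and 0.737 CPM against 3.50 and 2.55 CPM, which did not overlap.

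Footprints on the annotated 5′UTR were also compared between the isoforms of Slc3a2 and of Slc1a4. Per nucleotide, the 5′UTR of the shorter Slc3a2 form (132 nt) held 56.3%, 39.6% and 63.5% of the CDS density without KCl and 52.7% and 55.8% with it. On the 274 nt before the start of the longer form these values were 1.20%, 0.634% and 7.56% without KCl and 0.565% and 1.57% with it. The longer form had at most 8 footprints there in any library, against 34 to 168 for the shorter. Their CDS footprints were nearly identical, 487.0 and 483.0 CPM in untreated culture 1, since they share most of the CDS. The density therefore cannot tell 5′UTR occupancy from isoform abundance. RNAseq reads on the 5′UTR, summed over all libraries, were 27 for the shorter form and 3 for the longer.

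For Slc1a4, the 5′UTR of the shorter form (452 nt), part of which codes in the longer form, had 22.6, 20.2 and 34.6 CPM without KCl and 37.1 and 38.7 CPM with it. That is a difference of log2 0.60 ± 0.33 (adjusted p = 0.379). On the 241 nt before the start of the longer form the values were 14.6, 9.84 and 24.3 CPM without KCl and 17.5 in each KCl culture (log2 0.20, adjusted p = 0.868). The groups overlapped before the upstream start and did not overlap when the stretch between the starts was included.

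Upstream ATG codons were present in the named transcripts of 5 of the 10 genes. Slc38a3 has 9 in a 5′UTR of 333 nt, Slc38a1 has 8 in 1001 nt, Slc6a9 has 3 in 514 nt, and Slc7a1 and Slc1a5 have 1 each, all opening reading frames that end before the main start. The upstream frame of Slc7a1 has 57 codons and that of Slc1a5 has 13. On the Slc7a1 5′UTR the footprint density was 45.4%, 58.1% and 87.3% of that on the CDS without KCl and 65.6% and 47.0% with it. On Slc1a5 it was 44.7%, 83.3% and 89.0% without KCl and 39.6% and 53.3% with it. Both sets overlapped between groups. Slc6a9 had 38.1%, 43.7% and 47.4% without KCl and 43.5% and 24.3% with it. Slc38a1 had 16.7%, 16.8% and 24.7% without KCl and 15.4% and 15.5% with it. Slc38a3, with the most upstream ATG codons, had 4.26%, 4.21% and 5.43% without KCl and 3.61% and 6.51% with it. A second Slc38a3 transcript with the same CDS, whose 5′UTR of 288 nt has no upstream ATG, had 24.6%, 18.3% and 28.9% without KCl and 15.7% and 26.7% with it. Slc7a5, with 88 nt and no upstream ATG, had between 0 and 7 footprints there per library.

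In promoters, here 300 bases around the RefSeq transcription start (GRCm38.p6), 5 of the 10 genes were matched, with 9 promoters. The Atf4 composite element core TGATGNAA, searched on both strands, was found in 1 of the 9, that of Slc1a4, against 3.97% of 32851 promoters. It is shown with its 24-base window, from chr11:20332702-20332725 on the minus strand, with the match to the other strand's letters (TTNCATCA) in capitals: ctcctgcgTTGCATCAtctccagc. The Slc1a4 match begins at -4 from the transcription start and so runs across it. No match to the cAMP response element TGACGTCA or the E-box TCACGTGA was found in the 9, against 1.79% and 0.974% of all promoters. At such low shares 9 promoters are too few for a lack of matches to be informative, and the unmatched genes were not searched.

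Of the 46 other amino acid transporters on the list used here, 36 had counts and 7 were measured. In RNAseq 2 rose and 3 fell, against 33.2% of all measured transcripts called in either direction. In RF 3 rose and 1 fell, against 41.0%, and in TE 1 rose, against 5.8%. Slc38a2, a sodium-coupled neutral amino acid carrier related to Slc38a1 and a known Atf4 target, increased most, from 107.7, 91.0 and 86.5 CPM in RNAseq without KCl to 549.6 and 498.4 CPM with it (log2 2.46 ± 0.13, adjusted p = 5.93e-19). Its CDS footprints rose by log2 2.49 ± 0.13 (adjusted p = 4.06e-09) and its 5′UTR footprints by 2.75 ± 0.31 (adjusted p = 6.18e-06). The taurine carrier Slc6a6 rose by log2 0.87 in RNAseq and 0.97 in RF. Slc43a2, a carrier of large neutral amino acids like Slc7a5, fell by 1.26 and 0.87 on the log2 scale. Slc1a3, an astrocyte glutamate transporter, fell by 0.41 in RNAseq on the log2 scale and rose by 0.24 in RF, with a TE rise of 0.65 ± 0.16 (adjusted p = 0.00354).

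**Figure D4:**
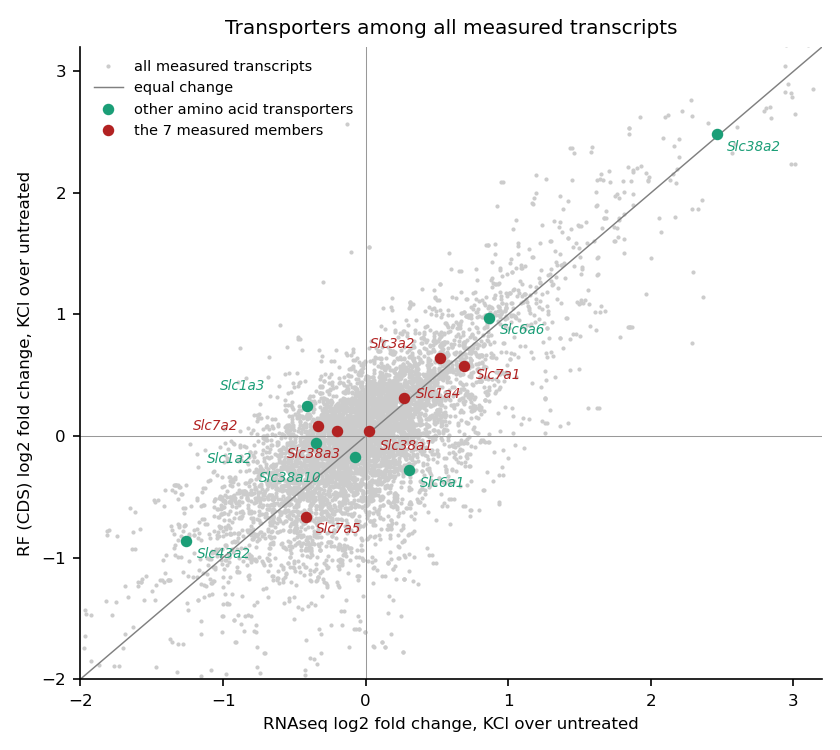
Log2 fold change (KCl over untreated) of CDS RF against RNAseq for the 7262 measured transcripts (light grey, 59 of them outside the axes), the 7 measured members (red) and 7 other amino acid transporters (green). The diagonal marks equal change, and most transporters lie near it, with Slc38a2 far up at 2.46 and 2.49 and Slc43a2 at the lower left.

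Genes around amino acid supply were followed by lists. Of 13 measured Atf4 targets and partners, 5 rose and 1 fell in RNAseq, where 17.5% of all measured transcripts rose and 15.7% fell. In RF 7 rose and 1 fell, where 21.2% of all rose and 19.8% fell, and in TE 1 rose, against 5.8% called in either direction. Atf4 itself had 164.0, 142.9 and 166.7 CPM in RNAseq without KCl and 687.8 and 762.5 CPM with it (adjusted p = 5.76e-18), and its CDS footprints rose by log2 2.44 ± 0.18. The transcription factors Cebpb (log2 1.88 and 1.99) and Atf3 (1.78 and 1.96) rose as well, whereas Ddit4, an inhibitor of mTORC1, fell by 1.09 in RNAseq on the log2 scale. The TE rise was that of Ddit3, a transcription factor of the stress response, whose CDS footprints went from 0.948, 2.06 and 3.68 CPM without KCl to 12.6 and 8.76 CPM with it (log2 2.57 in RF, -0.13 in RNAseq and 2.71 in TE, adjusted p of TE = 1.37e-05). Of 17 measured genes of amino acid sensing by mTORC1, 7 rose and 2 fell in RNAseq, 4 rose and 2 fell in RF, and 2 fell in TE, beside the same shares of all transcripts. Flcn, which acts on the Rag GTPases, rose by log2 3.01 in RNAseq and 2.24 in RF, with a TE difference of -0.81 (adjusted p = 0.0173). The Rag GTPase genes Rragc (2.17 and 2.08) and Rraga (1.36 in RNAseq, TE -1.32) rose in RNAseq, while Rragd fell by 0.99 in RF on the log2 scale. The genes named from these lists were picked for the largest changes, so their sizes cannot be set against those of Slc7a1, Slc3a2 and Slc7a5.

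The genes whose values were most like those of the 3 measured members with the largest RNAseq change were chosen by Euclidean distance between log2 CPM, centred on the untreated mean, over 10 libraries and 4362 genes. Plppr3 lay nearest to Slc7a1 (distance 0.207, against a median of 1.48 over all genes), followed by Ddx17 and Qrich1. Rnf20 was nearest to Slc3a2 (0.243, median 1.43), then Map7d1 and Ddx17. Syvn1 was nearest to Slc7a5 (0.286, median 1.39), then Hyal2 and Epn2. The points of a distance share libraries and treatment.

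Some cell type markers were called with KCl, as were many transcripts. Of all measured transcripts, 17.5% rose and 15.7% fell in RNAseq, and 21.2% rose and 19.8% fell in RF. The summed RNAseq level of the 14 astrocyte markers was 18500 to 19700 CPM without KCl and 16200 to 18400 CPM with it, and 4 fell while none rose. In RF the same sum was 27800 to 30500 CPM without KCl and 33800 to 35100 CPM with it, with 5 markers higher and 1 lower. The summed RNAseq level of the listed neuronal markers was 568 to 845 CPM without KCl and 736 to 767 CPM with it. For microglial markers it was 287 to 304 and 262 to 296 CPM, and for oligodendrocyte markers 1510 to 1620 and 1440 CPM. For vascular and mesenchymal markers it was 480 to 562 and 392 to 438 CPM. In RF the neuronal sum was 487 to 742 CPM without KCl and 718 to 815 CPM with it, with 1 of 6 measured markers higher. The microglial sum was 427 to 476 and 509 to 539 CPM, with 2 of 4 higher, and the oligodendrocyte sum 1320 to 1500 and 1490 to 1630 CPM, with 1 of 8 higher and 1 lower. The vascular and mesenchymal sum in RF was 978 to 1290 CPM without KCl and 605 to 732 CPM with it, and of its 2 measured markers 1 was higher and 1 lower. Their part in the transporter results was not tested. All 4 measured activity-induced genes rose in both RNAseq and RF.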

How the data were processed

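RNAseq and RF libraries of 3 untreated and 2 KCl cultures were analysed. The authors used Trimmomatic 0.32 for trimming and STAR 2.3.1z8 to discard rRNA. They took degenerate sequences out of the mm10 transcriptome of Ensembl release 75 and aligned the remaining reads to it with bowtie2 2.2.2. They kept multi-mapped reads and deposited raw counts per transcript region from BEDTools 2.20.1. Isoforms therefore share reads. A further KCl culture was removed by the authors for its library size. Region letters were read as 5′UTR, CDS and 3′UTR from their relation to annotated lengths, and 1 region stayed unnamed and enters only RNAseq sums. Of 22534 transcripts, 22172 (98.4%) were matched to the GRCm38 annotation (13189 genes).

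RNAseq (all regions), RF (CDS) and 5′UTR footprints were compared between groups in edgeR 4.0.16 (quasi-likelihood test, robust, R 4.3.3, TMM within assay), and p-values were adjusted by Benjamini-Hochberg over all transcripts tested. TE was tested as the assay by treatment interaction, blocked by culture, since the labels state that the RNAseq portion came from the RF lysate. The 5′UTR ratio to the CDS was the interaction of region and treatment with the same block. SE is the absolute log2 fold change over the square root of F, an approximation, and intervals are 95%. An exact permutation of 3 against 2 cultures cannot go below p = 0.1 and was not used. Lack of overlap between groups is therefore given as a description, not as a test, and its share over all transcripts is not given. The fits were also run on simulated counts, in which only well-covered transcripts changed, and by more than the members did. That run does not cover smaller changes or genes with few reads, and its outcome is not given. The transcript named for a member had the most RNAseq reads on average. From the other lists at most 4 genes per list and assay were named, by size of change among calls without overlap. Members and lists were chosen with earlier results of these data known. Alternatives were DESeq2 1.42.0, library totals, filterByExpr, no filter beyond 1 read, 1 transcript per gene, all 10 libraries in 1 fit, RNAseq on the CDS, no block, at least 50 in place of 20 5′UTR footprints, and leaving out each culture. For genes below the minimum, the filter-free fit was varied likewise, a choice made after seeing the data. A result of 1 further gene list is not reported here.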

Additional observations from a re-analysis of the deposited data

How the results depend on the processing

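The number of the 7 measured members called was kept within 1.5 times of its value in every alternative run for RNAseq (2 to 3 when 1 culture was left out), TE and both 5′UTR comparisons (0 throughout). In RF it was 1, Slc3a2, without KCl culture 5 (range 1 to 4 when 1 culture was left out). Leaving culture out as a block gave 0 calls among members in TE and in the 5′UTR ratio, and of the member transcripts described changed only the TE call of the second Slc7a2 transcript (adjusted p = 0.0629). Calls of single genes that were lost are given beside their values, with the cause not tested. With library totals in place of TMM the median of all transcripts moved by -0.104 in RF, and RNAseq of Slc7a2 passed the threshold (log2 -0.405, adjusted p = 0.0381).

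Signs turned only for differences that were not called. With library totals these were Slc38a1 (RNAseq -0.045, RF -0.063, TE -0.018), Slc38a3 (RF -0.058), both Slc7a2 transcripts (RF -0.018), Slc7a6 (RF -0.096) and Slc1a4 (TE -0.006). With RNAseq on the CDS they were Slc38a1 (RNAseq -0.024) and Slc1a4 (TE -0.290), with 1 transcript per gene Slc38a1 (TE -0.003), and without the block Slc1a4 (5′UTR ratio 0.002). When 1 culture was left out, RNAseq of Slc38a1 ranged from -0.055 to 0.102, RF of Slc38a1 from -0.031 to 0.093 and RF of Slc6a9 from -0.175 to 0.042. TE ranged from -0.568 to 0.111 for Slc7a5, from -0.381 to 0.002 for Slc7a6, from -0.066 to 0.321 for Slc3a2, from -0.017 to 0.037 for Slc1a4, from -0.250 to 0.706 for Slc1a5 and from -0.089 to 0.110 for Slc38a1. Footprints on the 5′UTR ranged from -0.065 to 0.504 for Slc1a4 and from -0.215 to 0.540 for Slc38a3. The 5′UTR ratio ranged from -0.323 to 0.164 for Slc7a1, from -0.122 to 0.192 for Slc3a2, from -0.287 to 0.156 for Slc1a4 and from -0.296 to 0.549 for Slc38a3. Leaving out a KCl culture leaves 1, whose spread is then taken from the untreated cultures. RF of untreated culture 3 and KCl culture 4 rests on the fewest reads, which limits Slc1a5, Slc7a6, Slc6a9 and all 5′UTR values most.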
